A study of Homo sapiens with 60 samples.

Results

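The 43 genes described here carry out DNA replication or control the passage of a cell from G1 into S phase. They are the genes of a fixed list of symbols, picked for what the proteins do, out of 60675 genes in the table of counts. The list was chosen with earlier results of these data known. Each of the 43 symbols matched 1 gene, and all 43 passed the filter on low counts, so none was left out of a test. The cells were A549, an established line of human lung adenocarcinoma cells, sequenced as bulk RNA after 24 h with vehicle or with a hot-water extract of medicinal plants. The vehicle group had 3 libraries, with DMSO at 0.1% in the sample labels and 2% in the text of the series. Single herbs were Menthae Herba and Saposhnikoviae Radix, and mixed decoctions were Guibi-tang, Okbyeongpung-san, Saengmaek-san and Soyo-san, each with 3 libraries at 500, 100 and 20 µg/mL. A further decoction, Soshiho-tang, had 1 library at each of those doses. The labels give no DMSO level for the extract groups, and the text of the series adds that other dilutions were used where the IC20 of an extract lay under 500 µg/mL, so the doses are printed as the labels have them.

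Replication starts in G1, when the origin recognition complex with CDC6 and CDT1 loads the ring-shaped helicase of MCM2 to MCM7 onto DNA. Cyclin E with its kinase and the E2F transcription factors then drive entry into S phase, CDC45 and the GINS subunits turn the ring into an active helicase, and the polymerases copy the strands behind the sliding clamp PCNA. Ribonucleotide reductase, made of the large subunit RRM1 and the small subunit RRM2, supplies the DNA building blocks. Many of these genes are transcribed mainly around the start of S phase through E2F sites, with RRM2 also relying on CCAAT boxes, so their RNA is often read as a sign of how many cells of a culture are replicating. In bulk RNA, fewer cells in S phase and less of the RNA per cell cannot be told apart.

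The promoters of the members that the results turn on are shown first, because E2F sites and CCAAT boxes are the elements through which such genes are usually read together. Of the 43 members, 37 had an entry among the RefSeq promoters (build GRCh38.p14), and the 250 bases before each gene's start were searched on both strands for the E2F-type octamers TTTCCCGC, TTTGGCGC, TTTCGCGC and TTTGCCGC and for CCAAT. An octamer was present in 15 of the 37 members (40.5%), against 928 of 27305 genes with a promoter entry (3.4%) and 632 of 11782 of those tested here (5.36%). CCAAT was present in 20 of 37 members (54.1%), against 37.0% of all entries and 40.7% of the genes tested. The shorter TTTGGCG, which overlaps the octamer TTTGGCGC and was added after the data were seen, was in 9 of 37 members (24.3%) and 1.95% of all entries. RRM2, RRM1, CDC6 and ORC1, the members called most often below, held CCAAT and none of the octamers, and CDC6 also held TTTGGCG. A match describes the letters only.

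In the stretches that follow, capitals mark a motif match on either strand (ATTGG is CCAAT read from the other strand), and letters run 5′ to 3′ along the gene. The upstream windows of RRM2, CDC6, CDC45 and ORC1 overlap exons of other GENCODE 29 transcripts, so 20 bases around a match are given for these.
RRM2, chr2:10122609-10122628, plus strand: ggcgcagCCAATgggaaggg
RRM2, chr2:10122639-10122658, plus strand: ggcacagCCAATgggaaggg
RRM2, chr2:10122666-10122685, plus strand: accaaagCCAATgggaaggg
CDC6, chr17:40287746-40287765, plus strand: ctctctcATTGGctgtaact
CDC6, chr17:40287769-40287788, plus strand: ccactggATTGGtagcaaaa
CDC6, chr17:40287822-40287841, plus strand: actacagCCAATcagaatcg
CDC6, chr17:40287845-40287864, plus strand: ccgggcTTTGGCGggaggtg
CDC45, chr22:19479889-19479908, plus strand: ccgtgaTTTGGCGggagtct
ORC1, chr1:52404434-52404453, minus strand: cacgccgATTGGcgcgaagt
RRM1, chr11:4094435-4094684, plus strand: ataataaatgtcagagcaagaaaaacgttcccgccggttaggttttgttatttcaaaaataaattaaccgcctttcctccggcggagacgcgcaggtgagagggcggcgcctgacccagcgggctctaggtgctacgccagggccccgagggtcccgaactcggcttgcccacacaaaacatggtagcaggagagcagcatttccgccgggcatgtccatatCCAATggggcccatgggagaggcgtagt
MCM6, chr2:135876444-135876693, minus strand: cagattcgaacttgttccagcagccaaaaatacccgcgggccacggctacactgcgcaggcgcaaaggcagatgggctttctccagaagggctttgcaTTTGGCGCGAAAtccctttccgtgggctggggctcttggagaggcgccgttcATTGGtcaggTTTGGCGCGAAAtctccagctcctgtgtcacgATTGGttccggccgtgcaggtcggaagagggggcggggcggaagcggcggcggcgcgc
The 3 CCAAT boxes of RRM2 were each followed by the same 8 letters, and the nearest lay 66 to 62 bases before its start. TTTGGCG lay 28 to 22 bases before the start of CDC6 and 25 to 19 before that of CDC45. CDC45, which had 0 calls against vehicle in the main fit, also held CCAAT, between 112 and 40 bases before its start (not printed). MCM6, a subunit of the helicase ring, held TTTGGCGC overlapped by TTTCGCGC on the other strand at 152 to 141 bases and again at 90 to 79 bases before its start.

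Library totals ran from 18330643 to 35308834 counts, and no member had fewer than 119 counts in any library. Among markers of A549 and lung epithelium, in vehicle the keratins KRT8 and KRT18 stood at 3510 and 2730 CPM (counts scaled to the library total), ALDH1A1 at 6261 and AKR1B10 at 2637, but EPCAM at 4.28. The blood markers PTPRC and CD3E, the endothelial VWF and the fibroblast gene COL1A2 were at 0 in vehicle, and PECAM1, CDH5 and PDGFRA were at 0.0724, 0.0749 and 0.380 CPM. Of the same lists, the monocyte marker CD14 was at 2.50 and the fibroblast collagens COL1A1 and COL3A1 at 28.7 and 5.08 CPM. CDKN2A, which is deleted in A549, had 7 counts over all 60 libraries together. Mitochondrially encoded genes took a larger share of the counts after the 31st library in the order of the table, 16.1% ± 2.26 (SD, n = 29) against 11.9% ± 0.747 (SD, n = 31) up to it, which is called the step below. Before it came vehicle and both single herbs, and after it every Soyo-san, Okbyeongpung-san and Soshiho-tang library. Guibi-tang and Saengmaek-san were divided, with 10 libraries before and 8 after. The vehicle libraries also form a library set of their own in the library names, so that vehicle against extract and one library set against another cannot be told apart in any comparison with vehicle, and all of these comparisons share the same 3 vehicle libraries.

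In vehicle, the members differed widely in level per kilobase of merged exon. PCNA was highest at 168 ± 3.95 CPM per kilobase (SD, n = 3), followed by MCM7 at 83.1 ± 0.204, RRM2 at 78.0 ± 2.69 and TYMS, which makes thymidylate, at 70.7 ± 2.12. CCNE2 and E2F2 were lowest, at 2.58 ± 0.00903 and 3.52 ± 0.123 CPM per kilobase. The members were steady between replicates: the median SD inside a group was 0.07 on the log2 scale, against 0.08 for 9595 tested genes in the same range of levels and 0.12 for all 17256 genes tested. RRM1 had the smallest spread among the 43 (0.03) and CCNE2 the largest (0.14).

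At 500 µg/mL against vehicle, 18 tests of single members passed over the 6 extracts with 3 libraries per dose, and all 18 were falls, of 7.87 to 22.1%. The genes were RRM2, RRM1, CDC6, ORC1, MCM6 and the cyclins CCNE1 and CCNE2. A member was called at an adjusted p under 0.05 in edgeR's quasi-likelihood test, with Benjamini-Hochberg adjustment over all 17256 genes of the comparison. This is the main fit, and calls are those of the main fit unless another is named. With Menthae Herba 3 of 43 members fell, where 3.44% of all genes fell and 3.36% rose. With Saposhnikoviae Radix 2 fell (0.643% of all genes fell and 0.921% rose), with Guibi-tang 5 (1.78% and 2.63%), with Soyo-san 5 (2.91% and 3.11%) and with Okbyeongpung-san 3 (1.43% and 1.96%). With Saengmaek-san 0 of 43 were called by edgeR (0.261% of all genes fell and 0.354% rose), with 10 members lower and 0 higher at an unadjusted p under 0.05 (9.65% of all genes in either direction), and 2 called by DESeq2. The share of members that fell was above that of all genes in 5 of the 6 extracts, and no member rose in any of them. The median log2 fold change of the 43 members was -0.05 for Menthae Herba, -0.06 for Saposhnikoviae Radix, -0.07 for Saengmaek-san, -0.09 for Guibi-tang and Soyo-san and -0.08 for Okbyeongpung-san, while the median of all genes lay within 0.01 of 0 in each. Members below 0 numbered 30 of 43, 33, 40, 40, 35 and 38 in that order. With a term for the step in the fit the medians were nearer 0 for Soyo-san (-0.0202) and Okbyeongpung-san (-0.0291), each with 27 of 43 members below 0. That term could be set only by Saengmaek-san and Guibi-tang, whose libraries lay on both sides of the step.

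**Figure D1:**
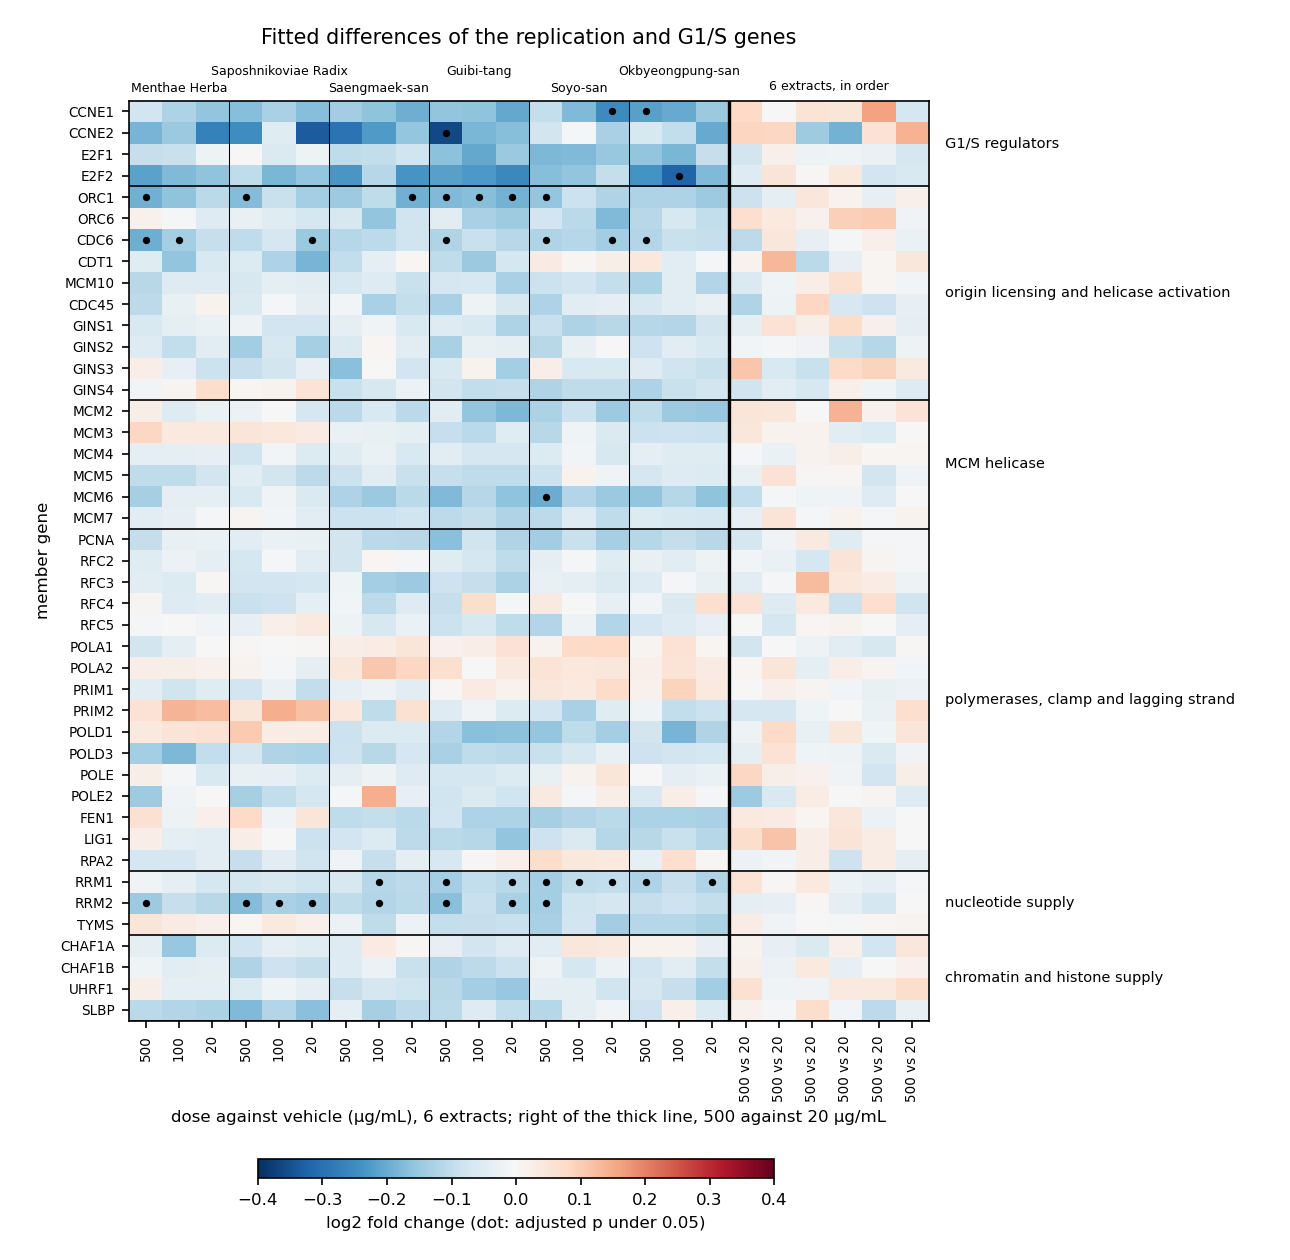
Fitted log2 fold changes of the 43 members (rows, by role) for each extract and dose against vehicle and, right of the thick line, for 500 against 20 µg/mL; a dot marks an adjusted p under 0.05. The dots lie on RRM1, RRM2, CDC6, ORC1 and 4 further genes and only in columns against vehicle.

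RRM2 and RRM1, the subunits of ribonucleotide reductase, were called 7 times at 500. Each of these calls was kept when any 1 of the 6 libraries compared was left out. All 7 were lost without the filter on low counts. RRM2 (chr2:10120698-10131419) stood at 300, 309 and 289 CPM on the TMM-scaled library size in the 3 vehicle libraries, and at 263, 266 and 267 with Saposhnikoviae Radix at 500. Its log2 fold change was -0.17 ± 0.03 (SE; adjusted p = 4.611e-04), a fall of 11.3%. With Menthae Herba the levels were 272, 265 and 276 (-0.15, adjusted p = 9.921e-04), and with Guibi-tang 263, 272 and 266 (-0.17, adjusted p = 2.323e-04). With Soyo-san they were 271, 274 and 272 (-0.14, adjusted p = 0.00288). In these 4 extracts every treated library lay below every vehicle library. Saengmaek-san (274, 283 and 279 CPM; -0.10, adjusted p = 0.109) and Okbyeongpung-san (275, 286 and 283 CPM; -0.09, adjusted p = 0.0763) did not pass, although their libraries also lay below all vehicle libraries. RRM1 (chr11:4094707-4138876) stood at 193, 197 and 197 CPM in vehicle. It fell with Guibi-tang (178, 179 and 178 CPM; -0.14, adjusted p = 0.00100), Soyo-san (175, 178 and 180 CPM; -0.14, adjusted p = 0.00110) and Okbyeongpung-san (178, 179 and 182 CPM; -0.12, adjusted p = 0.00494), in each case with no overlap with vehicle. With Menthae Herba at 500 its levels of 195, 191 and 196 CPM overlapped vehicle, and the change was -0.02. The third member of this role, TYMS, was not called in any comparison.

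**Figure D2:**
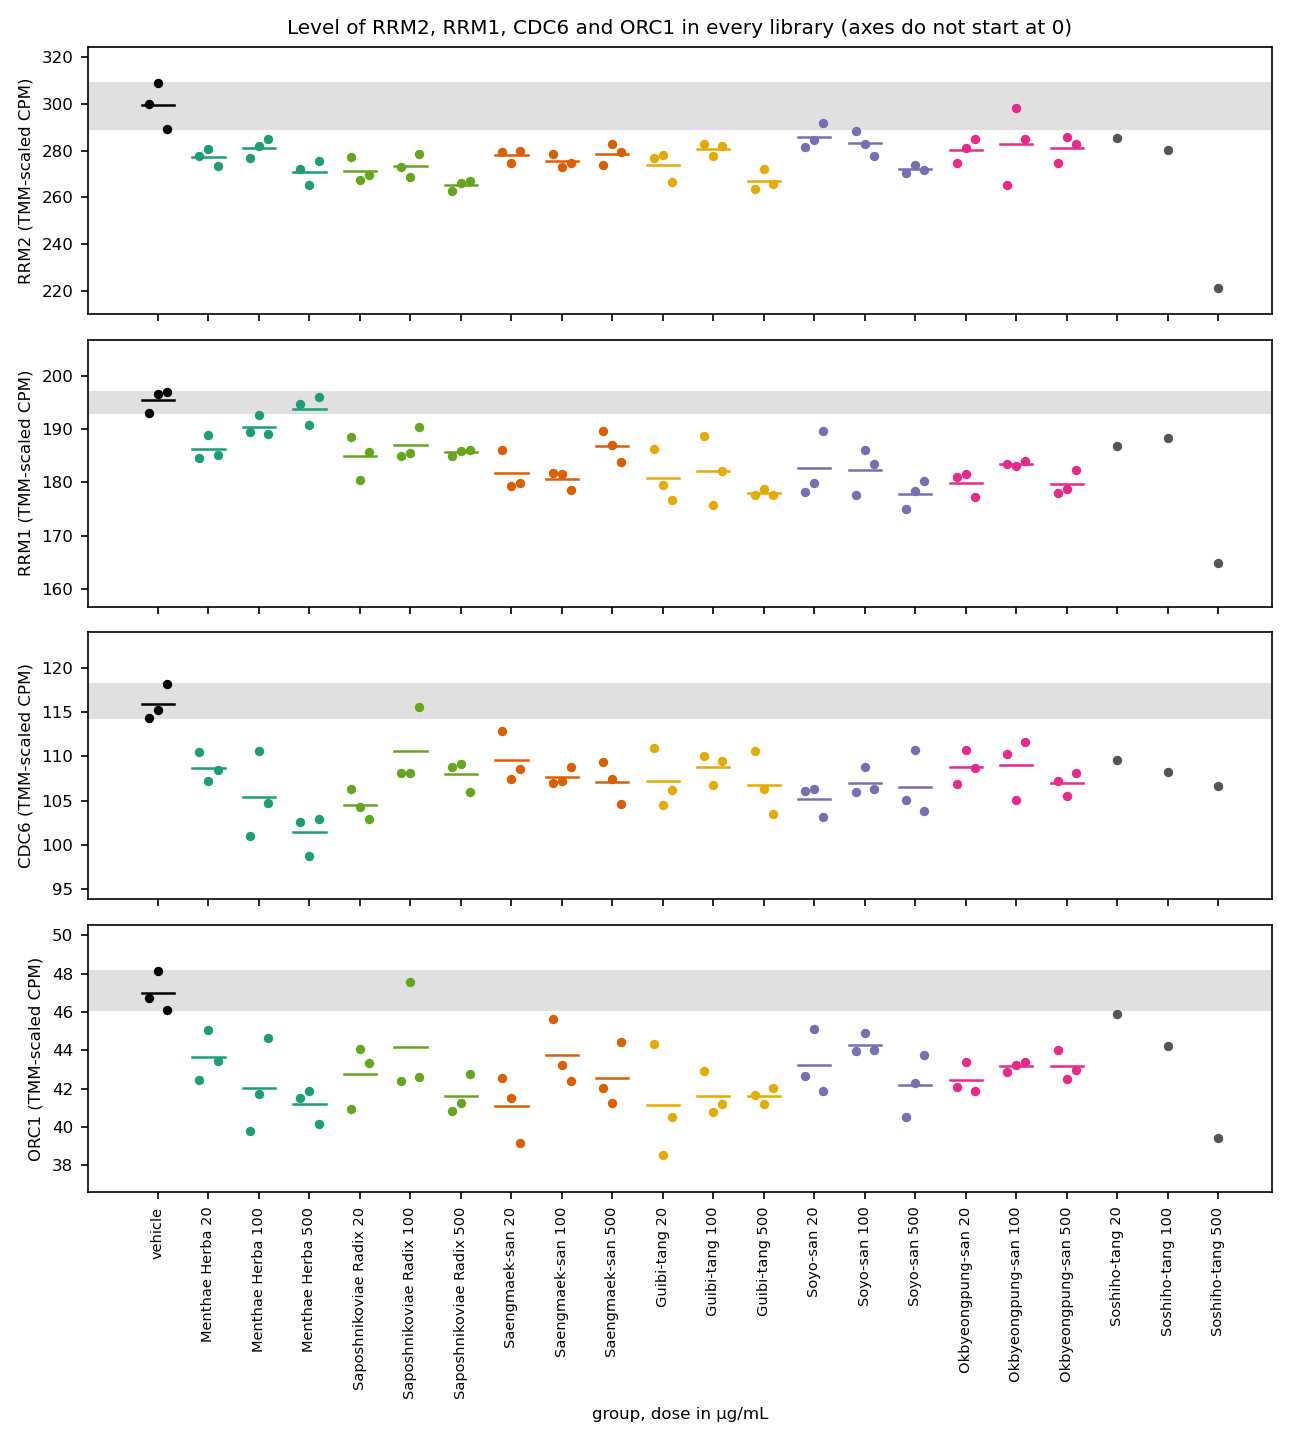
TMM-scaled CPM of RRM2, RRM1, CDC6 and ORC1 in every library by group and dose; points are libraries, short lines group means, and the grey band is the range of the 3 vehicle libraries. Nearly all treated points lie below the band, with 55 of 57 for RRM2 and RRM1 and 56 of 57 for CDC6 and ORC1.

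Among the 10 genes of origin licensing and helicase activation, CDC6 and ORC1 were the members called at 500. CDC6 (chr17:40287633-40304657), which helps load the helicase at origins, was at 114, 115 and 118 CPM in vehicle and at 103, 98.7 and 103 CPM with Menthae Herba. This was the member with the smallest adjusted p of the comparison, -0.20 ± 0.03 on the log2 scale (adjusted p = 7.645e-05, 12.7% lower), and it kept its call in all 6 single-library omissions. CDC6 also passed with Guibi-tang (-0.12, adjusted p = 0.0270), Soyo-san (-0.12, adjusted p = 0.0220) and Okbyeongpung-san (-0.12, adjusted p = 0.0371), but lost the call in 5, 4 and 6 of the 6 omissions, with adjusted p up to 0.148, 0.122 and 0.169. It was kept for Guibi-tang only without its replicate 1, and for Soyo-san without its replicate 2 or vehicle replicate 1. ORC1 (chr1:52372829-52404459), the largest subunit of the origin recognition complex, was at 46.8, 48.1 and 46.1 CPM in vehicle. With Menthae Herba it was at 41.5, 41.9 and 40.2 CPM (-0.19 ± 0.04, adjusted p = 0.00377), a call kept in all omissions. It also fell with Saposhnikoviae Radix (40.8, 41.3 and 42.7 CPM; adjusted p = 0.0242), Guibi-tang (41.6, 41.2 and 42.1 CPM; adjusted p = 0.0113) and Soyo-san (40.5, 42.3 and 43.8 CPM; adjusted p = 0.0264). The call with Saposhnikoviae Radix was kept only without its replicate 3 and that with Soyo-san only without its replicate 3, while that with Guibi-tang was lost without its replicate 2 or vehicle replicate 2 (adjusted p up to 0.161, 0.164 and 0.0816). All treated libraries of these comparisons lay below the vehicle range. Of the other 8 members of the role, ORC6, CDT1, MCM10, CDC45 and GINS1 to GINS4, none was called at 500.

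The E-type cyclins, which with CDK2 drive entry into S phase, and the activators E2F1 and E2F2 lay below 0 in all 18 comparisons of an extract and dose with vehicle. Their median log2 fold change at 500 was between -0.13 and -0.19, lower than that of any other role for 5 of the 6 extracts. CCNE1 (chr19:29811898-29824308) was at 27.3, 27.1 and 24.3 CPM in vehicle and at 21.2, 23.5 and 23.0 CPM with Okbyeongpung-san (-0.22 ± 0.06, adjusted p = 0.0377). CCNE2 (chr8:94879770-94896678) was at 8.74, 8.88 and 8.83 CPM in vehicle and at 6.65, 7.54 and 6.30 CPM with Guibi-tang (-0.36 ± 0.11, adjusted p = 0.0477). In both cases the groups did not overlap. The call of CCNE1 was kept only without vehicle replicate 3 and that of CCNE2 only without Guibi-tang replicate 2, with adjusted p up to 0.210 and 0.165 otherwise. E2F2 (chr1:23506430-23531220) was at 18.7, 18.2 and 17.7 CPM in vehicle and at 15.1, 13.8 and 14.7 CPM with Okbyeongpung-san at 100 µg/mL (-0.32, adjusted p = 0.0425). E2F1 was not called in any comparison, its changes running from -0.20 to -0.003.

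Of the 6 subunits of the helicase ring, 1 was called. MCM6 (chr2:135839626-135876426) fell with Soyo-san at 500, from 155, 152 and 152 CPM to 122, 144 and 134 CPM (-0.20 ± 0.05, adjusted p = 0.0193). The Soyo-san libraries did not overlap vehicle, and the call was kept only without Soyo-san replicate 2 (adjusted p up to 0.199 otherwise). The other 5 subunits, MCM2 to MCM5 and MCM7, gave 0 calls in 18 comparisons with vehicle; MCM4 was below 0 in all 18, between -0.08 and -0.01.

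The copying machinery had 0 calls among its 16 members at any dose in the main fit. DESeq2 called POLD3 with Menthae Herba at 100 µg/mL (-0.18, adjusted p = 0.0289) and PCNA with Guibi-tang at 500 (-0.17, adjusted p = 0.0404). The fit with a replicate block called the same 2. With the step term and in the libraries before the step alone, POLD3 was also called with Menthae Herba at 500 (-0.14 and -0.13). The step term gave a call of RFC4 with Okbyeongpung-san at 100 (-0.20). Before the step alone PCNA was called with Menthae Herba at 500 (-0.09). Calls of POLD1 and PRIM2 in other fits are given below. In the main fit the median of the 16 members at 500 lay between -0.02 and -0.08. PCNA, the clamp that holds polymerases on DNA, was below 0 in all 18 comparisons (from -0.17 to -0.03). At 500 of Guibi-tang it was at 232, 223 and 200 CPM against 250, 241 and 246 CPM in vehicle, with no overlap. POLD3, an accessory subunit of polymerase delta, was also below 0 in all 18 (from -0.18 to -0.03). The polymerase alpha subunits POLA1 and POLA2, which lay RNA-DNA primers with the primase PRIM1 and PRIM2, lay mostly above 0: POLA1 was below 0 in 3 and POLA2 in 2 of 18 comparisons, with changes of at most 0.08 and 0.11. POLA2 in vehicle was at 41.6, 41.4 and 41.5 CPM, and 40 of 57 treated libraries lay above that narrow range. Neither subunit was called.

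The 4 genes of chromatin and histone supply had 0 calls in the main fit. CHAF1A and CHAF1B belong to the assembly factor that deposits histones behind the fork. UHRF1 is a methylation maintenance factor and SLBP a histone RNA binding protein. Other edgeR fits, with the step term and on the libraries before the step alone, gave calls. Among these were SLBP with Saposhnikoviae Radix at 500 (adjusted p = 0.0378 and 0.011) and CHAF1A with Menthae Herba at 100 (adjusted p = 0.0473 and 0.0375). SLBP was at 59.1, 60.6 and 56.9 CPM in vehicle and at 51.3, 50.8 and 54.3 CPM with Saposhnikoviae Radix at 500 (-0.18), without overlap. CHAF1B was below 0 in all 18 comparisons, from -0.12 to -0.02.

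Members whose 3 treated libraries all lay below the 3 vehicle libraries numbered 12 for Menthae Herba (16.8% of all genes), 16 for Saposhnikoviae Radix (15.4%), 17 for Saengmaek-san (7.55%), 20 for Guibi-tang (10.8%), 24 for Soyo-san (16.4%) and 23 for Okbyeongpung-san (16.2%). Members above all vehicle libraries numbered 2 (16.5% of all genes), 3 (14.3%), 1 (8.24%), 0 (11.4%), 1 (15.3%) and 0 (16.5%). In each of the 6 extracts the share of members below vehicle was above that of all genes, and the share above vehicle was below it.

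At 100 µg/mL, 7 falls were called. CDC6 fell with Menthae Herba (-0.14, adjusted p = 0.0295), where 0.417% of all genes fell and 0.556% rose, and RRM2 fell with Saposhnikoviae Radix (-0.13, adjusted p = 0.0255), where 0.296% fell and 0.371% rose. RRM1 (-0.11, adjusted p = 0.0362) and RRM2 (-0.12, adjusted p = 0.0482) fell with Saengmaek-san (0.255% of all genes fell and 0.411% rose). ORC1 fell with Guibi-tang (-0.17, adjusted p = 0.0331; 0.539% and 0.875%), RRM1 with Soyo-san (-0.10, adjusted p = 0.0414; 0.811% and 0.968%) and E2F2 with Okbyeongpung-san as given above (0.643% and 0.73%). At 20 µg/mL, 10 falls were called. With Menthae Herba 0 of 43 members were called by edgeR (0.11% of all genes fell and 0.272% rose), with 8 lower at an unadjusted p under 0.05 (9.83% of all genes in either direction) and 1, RRM2, called by DESeq2. RRM2 (-0.14, adjusted p = 0.00943) and CDC6 (-0.15, adjusted p = 0.0129) fell with Saposhnikoviae Radix (0.278% and 0.713%), and ORC1 fell with Saengmaek-san (-0.19, adjusted p = 0.0282; 0.145% and 0.307%). ORC1, RRM2 and RRM1 fell with Guibi-tang (-0.19, -0.13 and -0.11; 0.551% of all genes fell and 0.8% rose), CDC6, RRM1 and CCNE1 with Soyo-san (-0.14, -0.10 and -0.26; 0.962% and 1.04%), and RRM1 with Okbyeongpung-san (-0.12, adjusted p = 0.01504; 0.487% and 0.603%). With the step term 3 of the 7 calls at 100 were lost, ORC1 with Guibi-tang, RRM1 with Soyo-san and E2F2 with Okbyeongpung-san, and 4 of the 10 at 20, RRM1 with Guibi-tang, Soyo-san and Okbyeongpung-san and CDC6 with Soyo-san.

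Counted over the 18 comparisons with vehicle, 35 of 774 tests of a member passed and all 35 were falls. They fell on 8 members: RRM1 and RRM2 with 8 each, CDC6 and ORC1 with 7 each, CCNE1 with 2, and MCM6, CCNE2 and E2F2 with 1 each. Of all genes, 0.11 to 3.44% fell and 0.272 to 3.36% rose in these 18 comparisons. All 18 used the same vehicle libraries, so the calls are not independent of each other. Without the filter on low counts 8 tests passed, 1 each for ORC1, CDC6, CCNE1, CCNE2, MCM6, E2F1, E2F2 and POLD1, and 0 for RRM1 and RRM2. A further 7 members were below 0 in all 18 comparisons without a call. POLA1 and POLA2 were the members most often above 0.

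Between 500 and 20 µg/mL of the same extract, where the vehicle libraries play no part, 0 of 43 members were called in each of the 6 extracts by edgeR. The share of all genes called was 2.43% for Menthae Herba, 0.0811% for Saposhnikoviae Radix, 0.0% for Saengmaek-san, 0.997% for Guibi-tang, 0.614% for Soyo-san and 0.0985% for Okbyeongpung-san. At an unadjusted p under 0.05, 2, 0, 1, 0, 1 and 0 members were lower and 0, 1, 1, 0, 1 and 0 were higher, beside 11.4, 3.57, 2.72, 10.4, 7.43 and 3.84% of all genes in either direction. DESeq2 also called 0 in each. The median change of the members was -0.01 for Menthae Herba and within 0.005 of 0 for the other 5. The 95% interval reached a median of 0.11 to each side, and 41 to 43 of the 43 intervals lay within 0.3 of 0. That reach was wider than the median of the members against vehicle at 500 (-0.05 to -0.09). The called falls of RRM2, RRM1, CDC6 and ORC1 at 500 (-0.12 to -0.20) were also smaller than 0.3. A dose change of such a size in a single member could thus be missed.

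The nearest to a call was CDC6 with Menthae Herba, at 103, 98.7 and 103 CPM at 500 against 110, 107 and 108 CPM at 20 (-0.10, 95% interval -0.17 to -0.04, adjusted p = 0.0987). The 3 libraries at 500 lay below the 3 at 20, and the adjusted p ran from 0.151 to 0.399 when single libraries were left out. With the step term CDC6 was called (-0.10, adjusted p = 0.047 in edgeR). RRM2 was 278, 281 and 273 CPM at 20 of Menthae Herba, already below vehicle, and changed by -0.04 from there to 500. For Saposhnikoviae Radix RRM2 was at 277, 268 and 270 CPM at 20, and its change to 500 was -0.03; for Soyo-san it was -0.07. The largest change of any member was that of CCNE2 with Guibi-tang, -0.19, with a 95% interval from -0.42 to 0.04. CCNE1 was higher at 500 than at 20 of Soyo-san by 0.16 (interval 0.03 to 0.29, adjusted p = 0.448). GINS2 was the member below 0 in all 6 extracts. MCM2 and LIG1, the ligase that joins lagging-strand fragments, were above 0 in all 6, and none of these was called. For Guibi-tang, replicates 1 and 2 at 500 but only replicate 1 at 20 came before the step, so dose and step were mixed. MCM2, higher there by 0.14, was lower after the step than before it (-0.26 within Saengmaek-san and Guibi-tang). With the step term the median of the members for Guibi-tang was -0.0175.

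**Figure D3:**
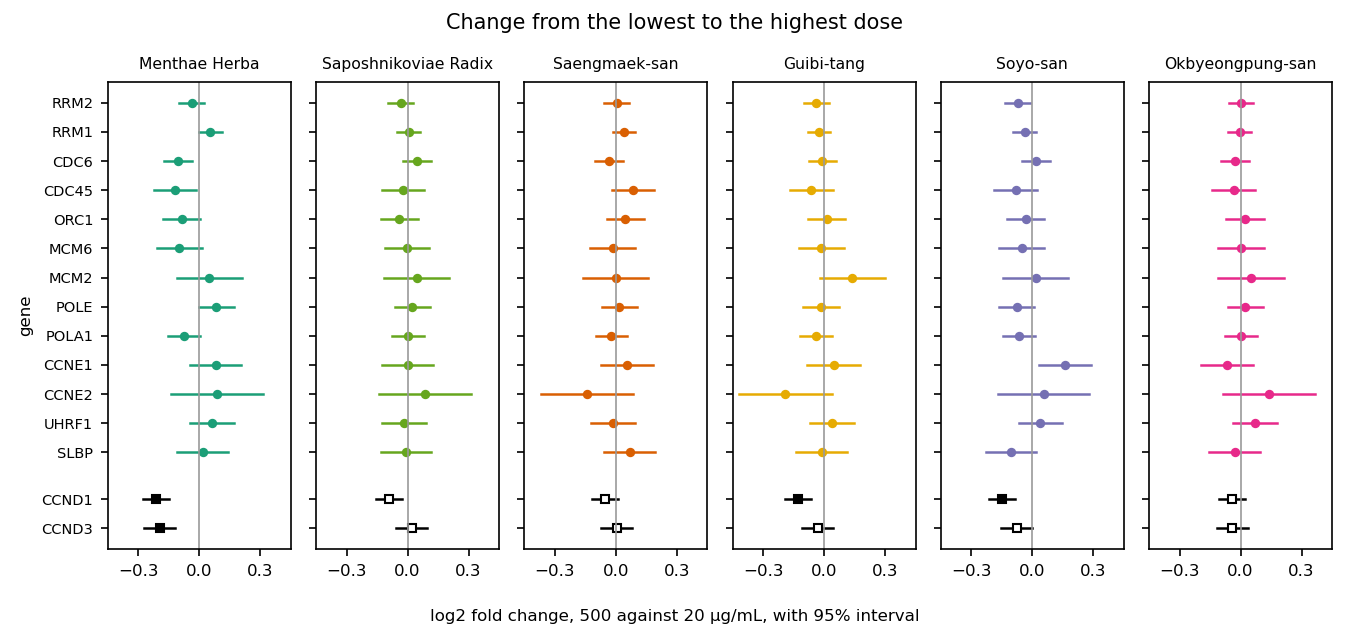
Log2 fold change of 13 members (circles) and of CCND1 and CCND3 (squares, filled where called) between 500 and 20 µg/mL, with 95% intervals, for each extract. The intervals of the members cross or come near 0 in every panel, and filled squares appear with Menthae Herba, Guibi-tang and Soyo-san.

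Extracts were set against each other at 500 only inside a library set. Menthae Herba against Saposhnikoviae Radix called 0 of 43 members in edgeR (1.47% of all genes called), with 2 lower and 2 higher at an unadjusted p under 0.05 (9.90% of all genes in either direction). The smallest adjusted p was that of CDC6, 103, 98.7 and 103 CPM against 109, 109 and 106 CPM, a difference of -0.09 (95% interval -0.16 to -0.03, adjusted p = 0.212). Saengmaek-san against Guibi-tang called 0 (1.0% of all genes), with 0 lower and 3 higher at an unadjusted p under 0.05 (7.82% of all genes); RRM1 differed by 0.07 (adjusted p = 0.385). Soyo-san against Okbyeongpung-san called 0 (0.133% of all genes), with 0 members at an unadjusted p under 0.05 in either direction (5.52% of all genes). The difference between 2 extracts in their change from 20 to 500 was tested for the same 3 pairs and called 0 members in each (0.197, 0.296 and 0.029% of all genes), with 1, 0 and 1 members at an unadjusted p under 0.05 (5.35, 5.91 and 4.49% of all genes). That of CDC6 between Menthae Herba and Saposhnikoviae Radix was -0.15 (interval -0.25 to -0.05, adjusted p = 0.350), and that of CCNE1 between Soyo-san and Okbyeongpung-san was 0.23 (adjusted p = 0.923). DESeq2 called 0 members in all 6 of these comparisons.

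The members differed in how they stood across the step in the library order, which could be read within Saengmaek-san and Guibi-tang, with 10 libraries before it and 8 after. The genes named here were chosen after their values were seen. All 8 libraries after the step were below all 10 before it for 6 members, POLD1, MCM2, TYMS, GINS4, E2F1 and UHRF1, as was the case for 6.01% of all genes, and 0 members were above (5.93%). POLD1, the catalytic subunit of polymerase delta, ran from 79.4 to 88.8 CPM before (median 85.0) and from 63.9 to 73.9 CPM after (median 68.7), and MCM2 from 105 to 119 CPM before and from 88.6 to 101 CPM after. MCM2 in the second replicate of Guibi-tang was at 117 CPM at 500, before the step, and at 92.8 and 88.6 CPM at 100 and 20, after it. GINS2 lay the other way, with a median of 44.5 CPM before and 49.9 CPM after, in ranges that overlapped. RRM2, in contrast, ran from 263 to 283 CPM before (median 276) and from 266 to 282 CPM after (median 278), CDC6 had medians of 108 and 106 CPM, and RRM1 of 184 and 179 CPM. The levels of these 3 genes overlapped across the step, and lay below all 3 vehicle libraries on both sides of it.

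**Figure D4:**
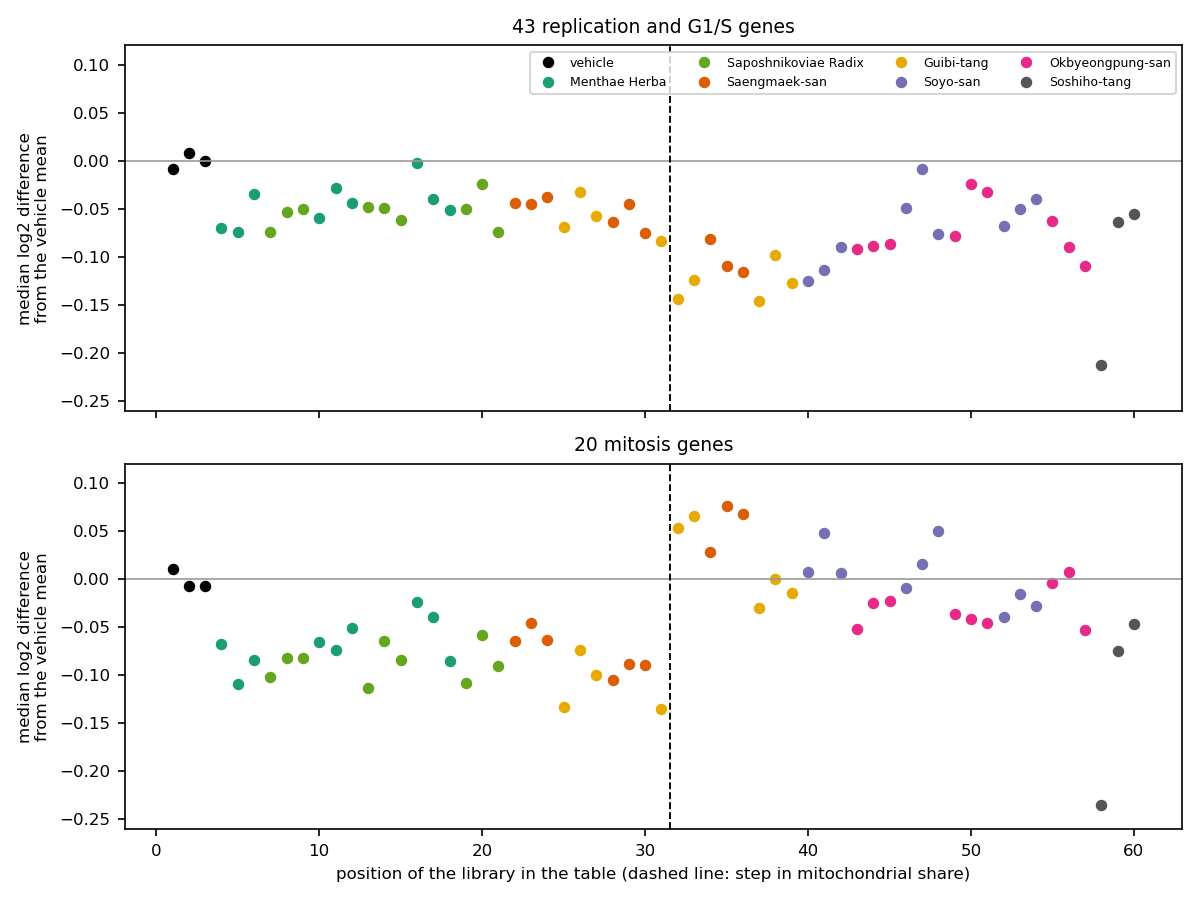
Median log2 difference from the vehicle mean of the 43 members (upper panel) and of 20 mitosis genes (lower panel) in each library by its position in the table; the dashed line marks the step in mitochondrial share. The members lie below 0 in all 57 treated libraries, with a median of -0.05 before the step and -0.09 after it.

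Taken library by library, the median of the 43 members was below the vehicle mean in 57 of 57 treated libraries on the TMM scale, from -0.21 to -0.002, and below the lowest of the 3 vehicle libraries (-0.009) in 55. Scaled to the library total it was below 0 in 52 of 57, and after subtraction of the median of all genes in 57 of 57. Its median was -0.05 over the 28 treated libraries before the step and -0.09 over the 29 after it. On the TMM scale the median of the 20 mitosis genes was below 0 in all 28 treated libraries before the step (between -0.13 and -0.02), while after it the median ran from -0.05 to 0.08 in the extracts other than Soshiho-tang. Scaled to the library total the latter ran from -0.13 to 0.015, below 0 in 25 of 26 libraries, and it was below 0 in 26 of the 28 before the step.

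With a term for the step added to the fit, which members were called against vehicle at 500 changed. The size of the term came from Saengmaek-san and Guibi-tang alone. It was carried over to Soyo-san and Okbyeongpung-san, whose libraries all lay after the step. For Okbyeongpung-san the calls of CDC6 and CCNE1 were lost. In that fit RRM1 (-0.09), GINS2 (-0.25) and SLBP (-0.20) were called as falls, and POLD1 (0.23) and PRIM2 (0.25) as rises. Within Saengmaek-san and Guibi-tang, the log2 difference of after minus before the step was -0.30 for POLD1 and -0.26 for PRIM2. It was 0.15 for GINS2 and 0.11 for SLBP. For Soyo-san and Okbyeongpung-san these calls therefore rest on the carried-over term. For Soyo-san the calls of MCM6, ORC1 and CDC6 were lost, RRM1 and RRM2 were kept, and GINS2 (-0.28) and SLBP (-0.23) were called as falls. For Menthae Herba and Guibi-tang all calls were kept, with 7 and 8 members called, and RRM2 and ORC1 were kept for Saposhnikoviae Radix. The fit on the libraries before the step alone carries no such term. There SLBP was called at 500 with Saposhnikoviae Radix (-0.17) and Guibi-tang (-0.16), and GINS2 with Guibi-tang (-0.20). Guibi-tang at 500 had only its replicates 1 and 2 in that fit. Testing all genes without the filter on low counts left ORC1 and CDC6 for Menthae Herba, CCNE2 for Guibi-tang and MCM6 for Soyo-san as the only members called at 500.

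Soshiho-tang, with 1 library per dose, allows no test. Against the mean of the vehicle libraries, scaled to the library total and with 1 CPM added before the log2, 14 of 43 members were at least 0.3 lower at 500 (5.6% of all genes) and 0 were at least 0.3 higher (8.19%). At 100 µg/mL 0 members passed this limit downwards (2.74% of all genes) or upwards (2.62%), and at 20 µg/mL likewise 0 (2.86% and 2.65%). The 14 were CCNE1, CCNE2, E2F1, E2F2, MCM10, GINS1, GINS2, MCM4, MCM6, PCNA, PRIM2, FEN1, RRM2 and UHRF1, and TMM scaling left 11 (5.16% of all genes). RRM2 was lowest, at 221 CPM in the library at 500 and at 277 and 283 CPM at 100 and 20, against a vehicle mean of 301 CPM, which gives ratios of -0.44, -0.12 and -0.09. CCNE2 was at 6.30 CPM at 500 (-0.43) and CCNE1 at 19.9 CPM (-0.39). CDC6, in contrast, had much the same level at the 3 doses, 107, 107 and 109 CPM (-0.13, -0.12 and -0.10). The median of the 43 members was -0.22 at 500, -0.08 at 100 and -0.08 at 20, beside -0.005, -0.02 and -0.02 for all genes. Below all 3 vehicle libraries were 38, 34 and 33 members, and 37.6, 36.3 and 36.9% of all genes. The mitosis genes had a median of -0.23 in the library at 500 on the TMM scale.

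**Figure D5:**
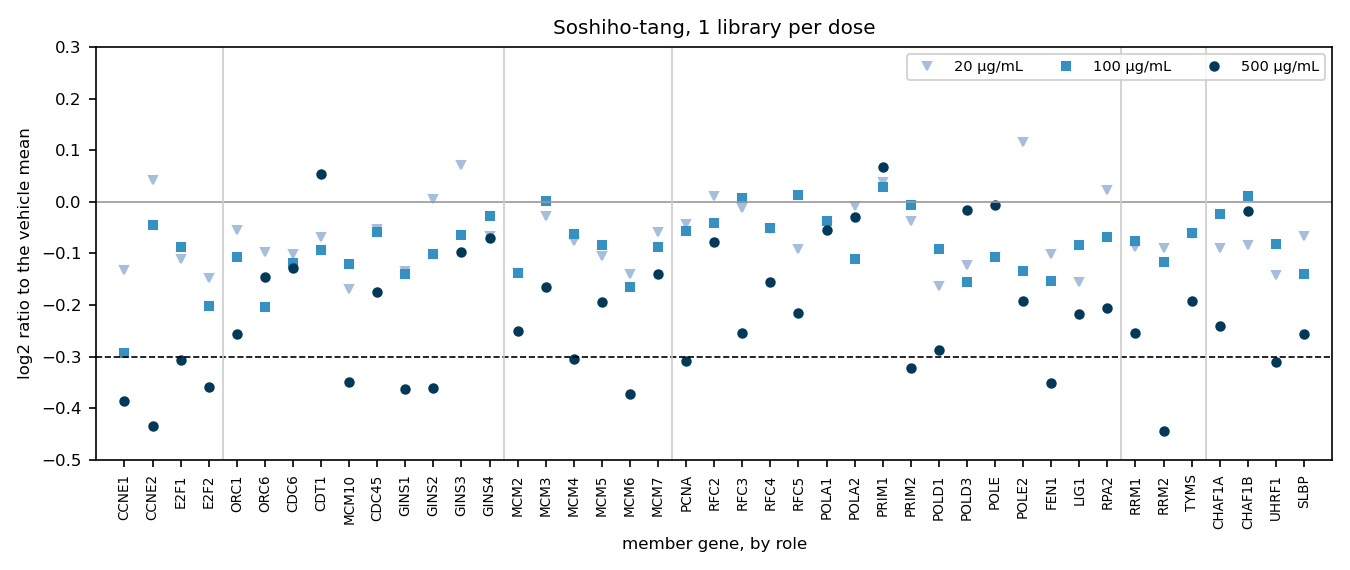
Log2 ratio of each member to the vehicle mean in the single Soshiho-tang library of each dose, by role; the dashed line is at -0.3. Circles (500 µg/mL) lie lowest for most members, with RRM2 at -0.44, while squares (100 µg/mL) and triangles (20 µg/mL) stay above the dashed line.

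Other genes of the pathway, taken from lists chosen with earlier results of these data known, were counted in the same fit. Of 38 other replication genes, 0 to 2 fell and 0 to 2 rose against vehicle at 500, and their medians lay between -0.04 and 0.01. Of all genes, 0.261 to 3.44% fell and 0.354 to 3.36% rose in the same 6 comparisons. The clamp-loader subunit CHTF18 rose with Menthae Herba (0.36, adjusted p = 0.00162) and Saposhnikoviae Radix (0.29, adjusted p = 0.0398), and the helicase RECQL4 with Menthae Herba (0.32, adjusted p = 0.0165). The mismatch repair gene MSH6 fell with Guibi-tang and Soyo-san (-0.14 and -0.11), DTL, which targets CDT1 for degradation, with Soyo-san (-0.14), and the chromatin remodeller HELLS with Okbyeongpung-san (-0.23). Between 500 and 20, 0 of the 38 were called in any extract.

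The D-type cyclins CCND1 and CCND3, which act ahead of the E-type cyclins, were called between doses, CCND3 with Menthae Herba only. Of 26 other G1/S regulators, 23 passed the filter. Between 500 and 20, 2 of the 23 fell with Menthae Herba (2.43% of all genes called), 1 with Guibi-tang (0.997%) and 1 with Soyo-san (0.614%). With Saposhnikoviae Radix, Saengmaek-san and Okbyeongpung-san 0 were called (0.0811%, 0.0% and 0.0985%). CCND1, the partner of CDK4 and CDK6 early in G1, was at 435, 444 and 443 CPM in vehicle. At 500 of Menthae Herba it was at 362, 368 and 363 CPM, and at 20 at 427, 415 and 421 CPM, so that all libraries at 500 lay below all at 20. The change from 20 to 500 was -0.21 ± 0.03 (edgeR, adjusted p = 1.184e-05), kept in all 6 omissions. CCND1 also fell from 20 to 500 of Soyo-san (-0.15, adjusted p = 0.00805) and Guibi-tang (-0.13, adjusted p = 0.0250). The Soyo-san call was lost without Soyo-san 20 replicate 1 or 500 replicate 2, and that of Guibi-tang was kept only without its 500 replicate 1 or 20 replicate 3, with adjusted p up to 0.0871 and 0.146. For Guibi-tang, dose and step were mixed in this comparison. CCND3 fell from 20 to 500 of Menthae Herba, from 167, 173 and 179 CPM to 151, 155 and 149 CPM (-0.20, adjusted p = 7.277e-04). Against vehicle, CCND1 fell at 500 in all 6 extracts, between -0.28 and -0.15 (adjusted p from 2.397e-08 to 0.0102; the last, Saengmaek-san, was kept only without its replicate 1 or vehicle replicate 1). CCND3 differed at 500 between Menthae Herba and Saposhnikoviae Radix (-0.17, adjusted p = 0.00560), a call lost without replicate 3 of either group, while the difference in its change from 20 did not pass (-0.22, adjusted p = 0.0779), nor did that of CCND1 (-0.12, adjusted p = 0.557).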

How the data were processed

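The authors deposited expected counts per gene for 60 libraries, which per the submitters' processing notes came from FastQC 0.11.9, Trim Galore 0.6.5, STAR 2.7.3a and RSEM 1.3.3 on hg38 (GRCh38); annotation release and strand setting are not given in the sources used here. Here 10.5% of values were not whole, and all were rounded. Symbols and positions came from the reference tables and GENCODE 29. The 57 libraries of 19 groups with 3 replicates were fitted in edgeR 4.0.16 (R 4.3.3; TMM, filterByExpr, quasi-likelihood test), with Benjamini-Hochberg adjustment over 17256 genes for each of 30 comparisons. Levels are CPM, on the TMM-scaled library size unless the library total is named. DESeq2 1.42.0, no filter, a replicate block, a term for the step, libraries before the step and single omissions were alternatives.

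The members, the lists and the step were chosen with earlier results of these data known. Named with values were RRM2 and CDC6, in each role the 2 members with the smallest adjusted p between 500 and 20, and called members or, where 0 were called, the extremes; other members named were chosen after their values were seen, as were the promoters of ORC1 and MCM6. Labels do not say that replicates were separate cultures, so the p-values reflect no more than the spread between libraries, which may be technical. Same-numbered libraries deviated together (all 3 correlations over 0.1) in 1 of 27 comparisons, Saengmaek-san 500 against 20, so the block was an alternative. In that comparison replicates 1 and 2 of both doses came before the step and replicate 3 of both after it, so pairing by number and the step cannot be told apart. None of the 57 pairs of libraries inside a group agreed within sampling noise. Wortmannin and ethanol extracts, named in the series, were not analysed here.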

Additional observations from a re-analysis of the deposited data

How the results depend on the processing

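No call of the main fit changed direction in another fit. POLD1, not called in the main fit, was called in both directions: higher with Okbyeongpung-san at 500 with the step term (0.23), and lower at 100 without the filter (-0.20). Without the filter on low counts 0 members were called for Saposhnikoviae Radix and 0 for Okbyeongpung-san at 500, 1 for Guibi-tang and 1 for Soyo-san, 3 over all extracts at 100 and 1 at 20 µg/mL. DESeq2 called 5 for Saposhnikoviae Radix, 2 for Saengmaek-san and 5 for Okbyeongpung-san at 500, 14 at 100 and 18 at 20. With the step term 7 were called for Menthae Herba, 4 for Saposhnikoviae Radix, 1 for Saengmaek-san, 8 for Guibi-tang and 5 for Okbyeongpung-san (3 falls and 2 rises) at 500, 12 at 100, and 1 (CDC6, adjusted p = 0.047 in edgeR) for Menthae Herba between 500 and 20. Fitted on the libraries before the step alone, the calls at 500 were 8 for Menthae Herba, 5 for Saposhnikoviae Radix, 1 for Saengmaek-san and 9 for Guibi-tang. The median of the members moved with the step term to -0.0202 for Soyo-san and -0.0291 for Okbyeongpung-san at 500, to -0.0409 for Guibi-tang, -0.00518 for Soyo-san and -0.00926 for Okbyeongpung-san at 100, and to -0.0701, -0.0225 and -0.0184 for the same 3 at 20. Fitted on the libraries before the step alone it was -0.0321 for Saengmaek-san at 100. The cause of these changes was not tested. For these and the other alternative fits the share of all genes called is not given. Their counts of members called therefore cannot be set against it.

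Leaving out 1 library at a time gave 3 to 3 calls for Menthae Herba at 500, 1 to 2 for Saposhnikoviae Radix, 0 to 0 for Saengmaek-san, 2 to 5 for Guibi-tang, 2 to 4 for Soyo-san and 1 to 2 for Okbyeongpung-san, and 0 in every comparison between doses or extracts. The median difference between Saengmaek-san and Guibi-tang in their change from 20 to 500 ran from -0.0408 (without Guibi-tang 20 replicate 1) to 0.0234. With the replicate block the calls at 500 were 3, 2, 0, 7, 5 and 3 in the order of the extracts above, the 2 further members of Guibi-tang being MCM6 and PCNA, with 8 at 100 and 11 at 20. Between 500 and 20 of Saengmaek-san, where same-numbered libraries deviated together, the block gave 0 calls, so it changed no call there.

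At this depth the 95% interval of a member reached a median of 0.11 on the log2 scale to each side, and was widest for rare members such as CCNE2, with as few as 119 counts in a library.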

Other observations

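Other regulators of G1 and S phase were called for some of the extracts at 500 µg/mL against vehicle, all in the same edgeR fit and without single-library omissions. E2F3 fell with Menthae Herba, Guibi-tang and Soyo-san (-0.16, -0.18 and -0.17 on the log2 scale), and the repressor E2F8 with Menthae Herba, Saposhnikoviae Radix and Guibi-tang (-0.28, -0.28 and -0.31). CDKN2C, an inhibitor of CDK4 and CDK6, fell with Guibi-tang and Soyo-san (-0.27 and -0.33), and the CDK inhibitor CDKN1A with Soyo-san (-0.18, adjusted p = 0.0488). RBL2, a pocket protein that holds E2F targets down outside the cycle, rose with Menthae Herba, Guibi-tang and Okbyeongpung-san (0.16, 0.14 and 0.14). CDKN1C rose with Menthae Herba (1.82, adjusted p = 0.0109) from a vehicle mean of 0.126 CPM. In all, 4 of the 23 regulators tested fell and 2 rose with Menthae Herba (3.44% of all genes fell and 3.36% rose), 2 and 0 with Saposhnikoviae Radix (0.643% and 0.921%) and 1 and 0 with Saengmaek-san (0.261% and 0.354%). With Guibi-tang 5 fell and 1 rose (1.78% and 2.63%), with Soyo-san 5 and 0 (2.91% and 3.11%) and with Okbyeongpung-san 2 and 1 (1.43% and 1.96%).

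Of 20 mitosis genes, 2 fell at 500 with Menthae Herba, the kinases AURKA (-0.20) and PLK1 (-0.23), and 1 with Saposhnikoviae Radix, the cyclin CCNB2 (-0.16). With Guibi-tang 3 fell, CDC20 (-0.23), which activates the anaphase-promoting complex, BIRC5 (-0.20) and CCNB2 (-0.18). BIRC5 and CDC20 fell with Soyo-san (-0.21 and -0.14) and with Okbyeongpung-san (-0.20 and -0.18), and 0 were called with Saengmaek-san. No mitosis gene rose against vehicle at 500. The shares of all genes that fell and rose in these comparisons are those given for the regulators. Between 500 and 20 µg/mL, 1 gene was called, AURKB, higher at 500 of Menthae Herba by 0.19 (edgeR, adjusted p = 0.0383, with 2.43% of all genes called). With Guibi-tang 20 of 20 lay below 0 (median -0.08) with 0 called. There, replicates 1 and 2 at 500 but only replicate 1 at 20 came before the step, so dose and step were mixed. On the TMM scale the mitosis medians of replicates 1 to 3 were -0.133, -0.135 and -0.0297 at 500. At 20 they were -0.0995, 0.0652 and -0.0147.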
